A study of Arabidopsis thaliana with 12 samples.

Results

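The features described here are 191 of the 3439 on a transcript array of Arabidopsis thaliana, those whose hybridization signal was brighter in every psbs mutant sample than in every wild-type (WT) sample. They were chosen by these same measured values: for each member the lowest deposited intensity among the 6 psbs samples exceeded the highest among the 6 WT samples, and all WT intensities were above 0. Of the 191, 22 carried a single annotated gene, 26 carried several genes and 143 carried none. The 14 single-gene members named below are those left after setting aside the photosynthesis, redox and plastid ribosome genes PRK, PSAN, PSBY, LHB1B2, AT3G47650, AT2G04700, AT1G54500 and AT3G54210, whose ratios of psbs mean to WT mean ran from 1.95 to 8.18; AT1G04420, also set aside, did not meet the rule. Since the values that chose the members are the values given here, all ratios below are descriptions and carry no test.

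Both groups were of the Columbia 0 ecotype, and they differed, by the labels, in the loss of the protein PSII-S (PsbS) in the mutant. Total RNA was measured in 6 samples of each. The labels name no allele, tissue, age, light regime or hybridization batch, and do not say whether replicates came from separate plants, so the spread between samples may be technical, and genotype and any batch that coincided with it cannot be told apart. In bulk RNA of this kind, fewer cells of a type and less RNA per cell cannot be told apart either.

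PsbS sits in the thylakoid membrane of chloroplasts and senses the acidification of the lumen in strong light. It acts with the antenna of photosystem II to turn excess absorbed light into heat, the rapid part of non-photochemical quenching. Plants without it keep the slower forms of photoprotection and are more easily harmed by strong or fluctuating light.

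The 191 members made up 5.69% of the 3359 features that were above 0 in at least 1 sample. The opposite pattern, every WT value above every psbs value, held for 67.3% of the same features. That share includes features with 0 values in psbs, whereas the rule bars 0 values in WT. With 0 values in WT allowed, 196 features had every psbs value above every WT value. The members therefore ran against the prevailing direction: over the 2891 features with both group means above 0 the median log2 ratio of psbs mean to WT mean was -2.92, and in the members it was 1.63, with a range of 0.20 to 4.15. The range of the members starts above 0 because of the rule.

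**Figure D1:**
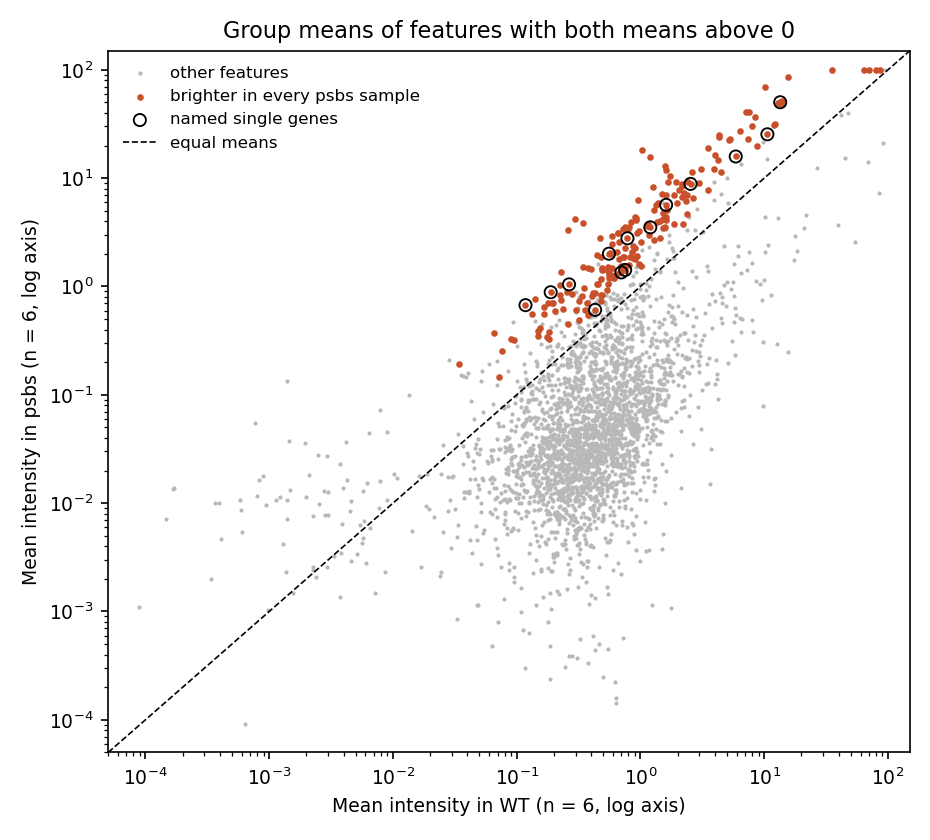
Mean intensity in WT (horizontal) and in psbs (vertical), each over 6 samples and on log axes, for features with both means above 0. The 191 members lie above the dashed line of equal means as the rule requires, while most other features lie below it; rings mark the 14 named genes.

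Before the values of single genes, the samples themselves need a description. The median intensity of all tested features ran from 0.313 to 0.392 in WT and from 0.0251 to 0.0380 in psbs. The median over the 191 members ran the other way, from 0.752 to 0.893 in WT and from 2.39 to 2.92 in psbs. Replicate numbers came in alike neighbours. Over the members, the median absolute log2 difference between samples was 0.0864, 0.0947 and 0.0956 for WT replicates 1 and 2, 3 and 4, and 5 and 6, and 0.168 to 0.290 for the 12 other WT pairs. In psbs it was 0.0701, 0.0827 and 0.0735 for these neighbours and 0.121 to 0.520 for the 12 others. Neighbouring numbers thus lay closer to each other than any other pair of their group did, so the labels' 6 samples a group may stand for only 3 separate sources; this was not tested.

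In psbs, replicates 1 and 2 formed a set of their own. Across that divide the median absolute log2 difference over the members was 0.471 to 0.520, against 0.0735 to 0.174 among replicates 3 to 6. The divide ran in both directions: replicates 1 and 2 both exceeded all of replicates 3 to 6 at 84 of the 191 members (44.0%), and both lay under all of them at 60 (31.4%). Over the 1407 features above 0 in all 12 samples these shares were 27.2% and 34.3%. What set these replicates apart was not tested. Ratios without them are therefore given beside each gene; without them the median log2 ratio of the members was 1.52.

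RAP74 encodes the large subunit of TFIIF, a general factor that RNA polymerase II needs to start transcription. Its intensity ran from 2.04 to 3.27 in WT, with a median of 2.44, and from 7.97 to 10.2 in psbs, with a median of 8.44. The lowest psbs sample lay 2.43 times above the highest WT sample, so the groups were well apart. The ratio of means was 3.49, and 3.25 without psbs replicates 1 and 2, which at 9.93 and 10.2 were the brightest. Its log2 ratio was 1.80 as deposited and 0.87 after cyclic loess scaling, without overlap in either.

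AT3G26630 encodes a chloroplast pentatricopeptide repeat protein, of a family that binds organelle transcripts. It was among the brightest named genes in both groups, from 8.45 to 13.8 in WT, with a median of 9.92, and from 23.7 to 27.0 in psbs, with a median of 25.5. The psbs samples agreed closely, with a coefficient of variation (SD over mean) of 4.87% against 19.98% in WT, and the ratio of means was 2.39, or 2.43 without psbs replicates 1 and 2. It stood at the 98.9th percentile of features in WT and the 99.3rd in psbs (medians over samples), so its place within the sample hardly differed. Every psbs rank still exceeded every WT rank, and after quantile scaling its log2 ratio was 0.55, without overlap. After cyclic loess scaling its groups overlapped, and its log2 ratio was -0.11 against 1.26 as deposited.

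AT3G15140 encodes an exonuclease related to animal ERI-1, with a role in the maturation of plastid ribosomal RNA. Its WT values ran from 0.613 to 0.983, with a median of 0.651, and its psbs values from 1.01 to 1.85, with a median of 1.16. Of the named genes it was nearest to overlap: the lowest psbs value was 1.02 times the highest WT value. The WT value of 0.983 belonged to replicate 1, and the other WT samples reached only 0.683. psbs replicates 1 and 2, at 1.83 and 1.85, carried part of the ratio of means, which was 1.92 with them and 1.57 without.

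AT2G21530 encodes a protein with a forkhead-associated domain, a fold that binds phosphorylated peptides. It was dim in WT, from 0.121 to 0.257 with a median of 0.186, and ran from 0.800 to 1.03 in psbs, with a median of 0.845. No other named gene had so wide a gap between the groups, the lowest psbs value being 3.12 times the highest WT value. The ratio of means was 4.70, and 4.87 without psbs replicates 1 and 2.

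Enzymes of known class formed the next group. AT3G45770 encodes the mitochondrial enoyl reductase of fatty acid synthesis. Its WT intensities ran from 0.242 to 0.516, with a median of 0.471, and its psbs intensities from 0.563 to 0.667, with a median of 0.607. This was the smallest ratio of means among the named genes, 1.41, and the lowest psbs value lay only 1.09 times above the highest WT value. Without psbs replicates 1 and 2 the ratio was 1.40. The spread was wider in WT (coefficient of variation 25.3%) than in psbs (6.58%).

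AT1G33250 encodes a predicted glycosyltransferase. In WT it ran from 0.686 to 0.811, with a median of 0.747, and in psbs from 0.944 to 2.34, with a median of 1.01. The psbs samples fell into separate levels, 2.26 and 2.34 in replicates 1 and 2 and 0.944 to 1.02 in the others. The ratio of means was 1.89 with all samples and 1.31 without replicates 1 and 2.

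The other 8 named genes are given by locus only, without a role. AT5G38360 was the brightest of all 14, from 11.5 to 16.9 in WT, with a median of 12.4, and from 42.1 to 55.2 in psbs, with a median of 53.7. Here psbs replicates 1 and 2 were the lowest, at 42.2 and 42.1, against 53.3 to 55.2 in the others. The ratio of means was 3.73, and 4.03 without them. After cyclic loess scaling its groups overlapped, and its log2 ratio was 0.34 against 1.90 as deposited. AT5G50350 ran from 5.04 to 7.02 in WT, with a median of 5.55, and from 14.7 to 16.8 in psbs, with a median of 15.9. Its psbs samples were the tightest of the named genes, with a coefficient of variation of 4.68%, and the ratio was 2.69, or 2.63 without psbs replicates 1 and 2. Its groups overlapped after loess as well, with a log2 ratio of 0.26 against 1.43 as deposited.

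AT1G51080 had the largest ratio of means among the named genes, 5.71. It was the dimmest in WT, from 0.0793 to 0.162 with a median of 0.116, and ran from 0.354 to 1.16 in psbs, with a median of 0.510. Much of that ratio came from psbs replicates 1 and 2, at 1.16 and 1.10, and without them it was 3.75. Even the lowest psbs sample was 2.19 times the highest WT sample. AT1G64430 showed the same layout at a higher level. It ran from 0.494 to 0.625 in WT, with a median of 0.558, and from 1.32 to 3.43 in psbs, with a median of 1.37. Replicates 1 and 2 were at 3.21 and 3.43 and the rest between 1.32 and 1.38, and the ratio was 3.61 with them and 2.43 without.

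AT3G15900 depended most on psbs replicates 1 and 2. Its WT values ran from 0.998 to 1.47, with a median of 1.12, and its psbs values from 1.82 to 6.87, with a median of 2.10. Those replicates, at 6.33 and 6.87, were far above the other psbs samples, which did not pass 2.22. The ratio of means was 2.93, and 1.64 without them. AT5G19540 ran from 0.471 to 1.0005 in WT, with a median of 0.889, and from 1.998 to 3.75 in psbs, with a median of 2.59. Its WT samples were split as well, with replicates 5 and 6 at 0.491 and 0.471 and the others from 0.868, and the ratio was 3.55, or 2.96 without psbs replicates 1 and 2.

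AT1G32730 and AT4G38490 had their lowest psbs values in replicates 1 and 2. AT1G32730 ran from 1.40 to 1.77 in WT, with a median of 1.63, and from 4.39 to 6.74 in psbs, with a median of 6.03, a ratio of means of 3.52. AT4G38490 ran from 0.158 to 0.468 in WT, with a median of 0.245, and from 0.510 to 1.47 in psbs, with a median of 1.16. The WT samples of AT4G38490 had the widest relative spread among all 191 members (coefficient of variation 42.3%), and its brightest WT sample came within 1.09 times of its lowest psbs sample. Without psbs replicates 1 and 2 its ratio went from 3.95 to 4.84, and that of AT1G32730 from 3.52 to 3.89.

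**Figure D2:**
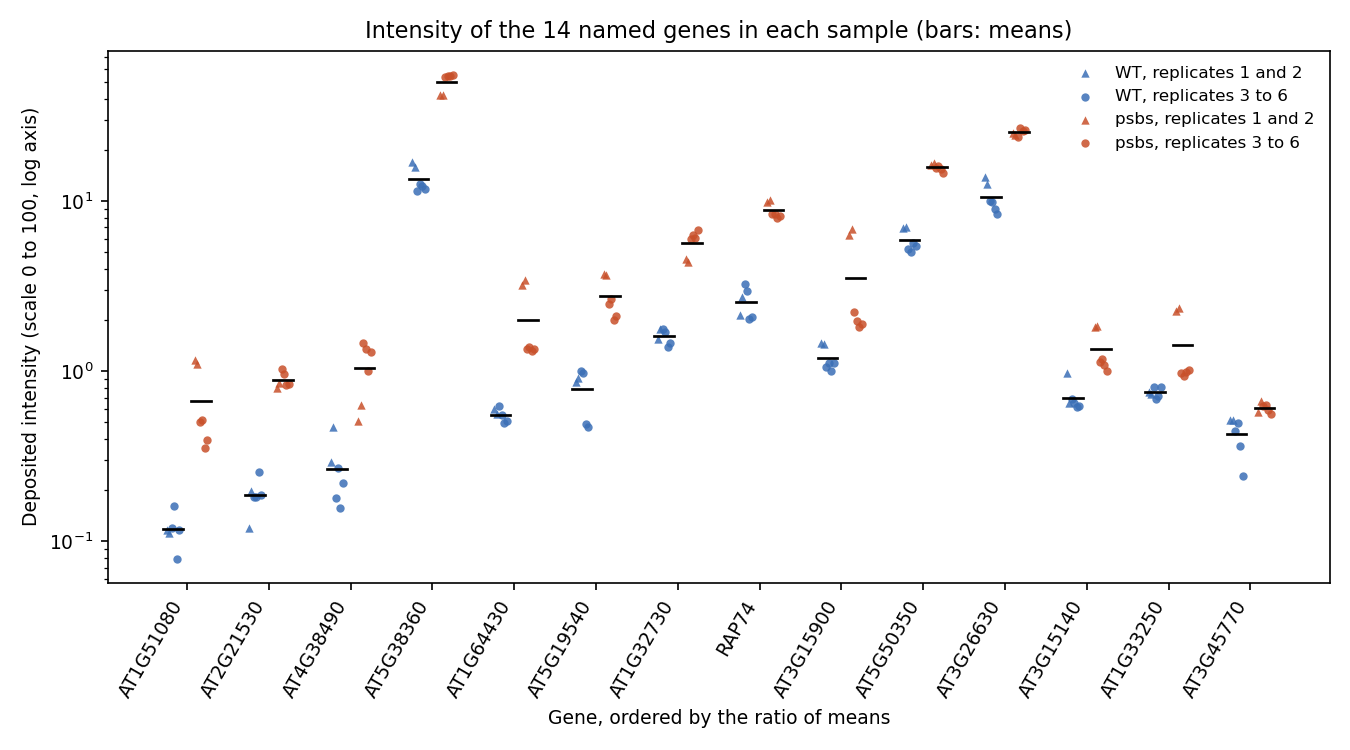
Deposited intensity (log axis) of the 14 named genes in each of 6 WT (blue) and 6 psbs (red) samples; triangles are replicates 1 and 2, circles replicates 3 to 6, and bars the group means. In no gene do the colours overlap, and in AT1G51080, AT1G64430, AT3G15900, AT3G15140 and AT1G33250 the psbs triangles sit clearly above the psbs circles.

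Among the named genes psbs replicates 1 and 2 both exceeded the other psbs samples at 8 of 14 (AT1G51080, AT1G64430, AT5G19540, RAP74, AT3G15900, AT5G50350, AT3G15140 and AT1G33250). They lay under them at 3 (AT4G38490, AT5G38360 and AT1G32730). At AT2G21530, AT3G26630 and AT3G45770 the values interleaved. The coefficient of variation was larger in psbs than in WT at 6 of the 14 genes and at 125 of the 191 members. Over the 1407 features above 0 in all samples it was larger in psbs at 1240. The rule itself disfavours a low psbs value, and with it a wide psbs spread, so nothing is read from this difference.

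The rule draws a sharp line through a continuous range. Just inside it lay AT3G15140, AT4G38490 and AT3G45770, described above, and over all members 20 had a lowest psbs value less than 10% above the highest WT value. Just outside lay AT3G14890, which encodes a DNA 3′-phosphatase of DNA repair, from 0.117 to 0.213 in WT and from 0.202 to 0.339 in psbs. AT5G19210, for a chloroplast DEAD-box RNA helicase, ran from 0.720 to 1.22 in WT and from 1.15 to 1.55 in psbs. AT3G25410, for a transporter of the bile acid/sodium symporter family, ran from 0.153 to 0.324 and from 0.302 to 0.557. AT5G11010, for a polynucleotide 5′-hydroxyl kinase, ran from 2.06 to 3.71 and from 3.22 to 3.55. In these genes 1 or more WT samples reached into the psbs range, and the ratios of means were 1.57, 1.47, 1.66 and 1.22. The ratios of AT3G14890, AT5G19210 and AT3G25410 were larger than the 1.41 of AT3G45770, which met the rule, and that of AT5G11010 was smaller.

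The sizes of the members' ratios spread widely. The ratio of means was at least 2 at 163 of 191 members, at least 4 at 53 and at least 8 at 6, of which 5 carried no single gene. The largest, 17.7, belonged to a feature with no annotated gene. It ran from 0.831 to 1.31 in WT, with a median of 0.927, and from 11.9 to 31.1 in psbs, with a median of 13.0. The ratio of the lowest psbs to the highest WT value was at least 1.5 at 130 members and at least 2 at 87. Among the 14 named genes these numbers were 9 and 7.

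At 5 members all 6 psbs samples stood at 100, the top of the scale, and a further member reached it in some. These 5 carried no annotated gene, and their WT means ran from 35.5 to 87.0. Their ratios are therefore limited by the end of the scale. None of the 22 single-gene members reached it.

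Members were drawn mostly from features that were already bright in WT. In the top quartile of WT means 109 of 840 features met the rule (13.0%), against 42 (5%), 28 (3.33%) and 12 of 839 (1.43%) in the quartiles below it. The rule itself can lower the share among dim features, but only by little. It requires all WT values above 0, which held for 2908 of the 3359 tested features, and a 0 in WT lowers the mean. Only 5 features had every psbs value above every WT value and were kept out by a 0 in WT. Of the brightest 34 features in WT, 13 met the rule. The named genes followed suit, with 9 of 14 in the top quartile and AT1G51080 in the lowest. Within the members the ratio hardly followed the WT level: from the dimmest to the brightest quartile of members the median ratio was 3.34, 2.56, 3.18 and 3.47.

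In psbs the members took up most of the signal, and a smaller part of that fell on 5 features at the top of the scale. The members held 71.2% ± 1.09 (SD, n = 6) of the summed intensity of a psbs sample and 21.5% ± 0.885 (SD, n = 6) of that of a WT sample. The shares ran from 70.1% to 72.5% in psbs and from 20.6% to 22.8% in WT. The 5 members without a gene that stood at 100 in all psbs samples held 19.2% ± 0.448 in psbs and 10.4% ± 0.586 in WT (SD, n = 6 each). They made up 27.0% of the members' signal in psbs and 48.6% of it in WT. The other 186 members held 52.0% ± 1.07 in psbs and 11.02% ± 0.355 in WT (SD, n = 6 each). The 14 named genes held 4.63% ± 0.116 in psbs and 1.20% ± 0.0830 in WT (SD, n = 6 each). psbs replicates 1 and 2, although apart in single members, were at 72.4% and 72.5% for the whole set. Of the 191 brightest features in psbs, 131 were members, and of the 191 brightest in WT, 47 were. Because the rule picked features with a higher value in psbs, a higher share there is part of the choice.

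**Figure D3:**
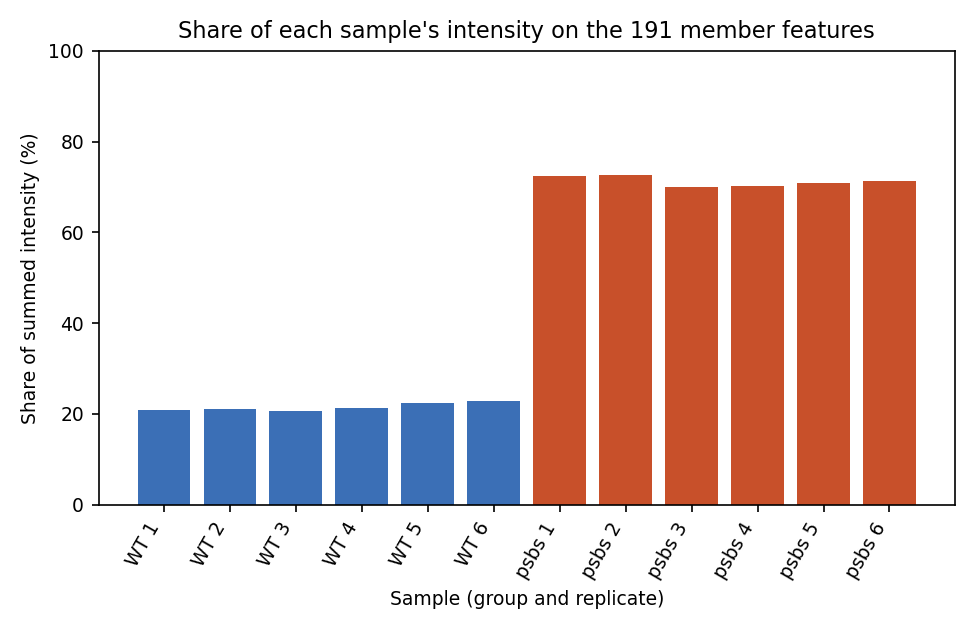
Share of each sample's summed deposited intensity (percent, bars from 0) that fell on the 191 members, for 6 WT (blue) and 6 psbs (red) samples. WT samples lie between 20.6% and 22.8% and psbs samples between 70.1% and 72.5%.

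The place of a feature within its own sample does not depend on a common scale. The members had a median percentile rank of 80.4 in WT and 96.2 in psbs (medians over samples, then over members), and at 186 of 191 every psbs rank exceeded every WT rank. The same held for 582 of all 3359 tested features (17.3%, counting those above 0 in all samples). The contrast is the one that chose the members, so nothing is read from their count. All 14 named genes were among the 186. The step was long for the dim genes: AT1G51080 went from the 19.6th to the 89.4th percentile, AT2G21530 from 28.2 to 92.7 and AT4G38490 from 38.0 to 93.9. It was short for the bright genes, from 99.3 to 99.7 for AT5G38360 and from 98.2 to 99.0 for AT5G50350, which had little room above them. A feature that kept its intensity would also gain rank in psbs, where most others were dimmer.

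**Figure D4:**
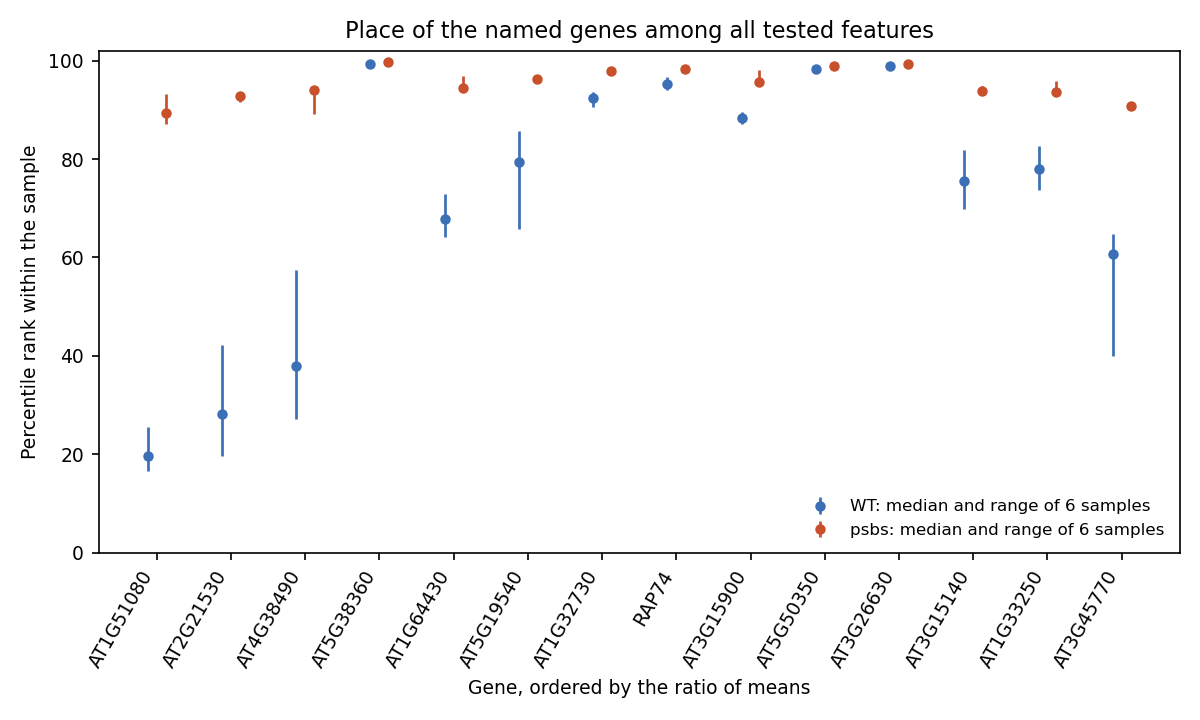
Percentile rank of the 14 named genes among the 3359 tested features of each sample, as median (point) and range (line) over 6 WT (blue) and 6 psbs (red) samples. In psbs all medians lie between 89.4 and 99.7, while in WT they spread from 19.6 to 99.3.

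Because the groups differed in overall brightness, the same non-overlap was counted after 3 kinds of scaling. Quantile scaling, which gives all samples one distribution, left 186 of the 191 members without overlap, where 17.3% of all tested features met the rule. It assigns values by rank within the sample, so these counts repeat those by rank above and are no separate reading. Dividing each sample by its median left 191, against 21.7% of all tested features. That 191 was fixed in advance: every psbs median lay below every WT median, so the division could only widen a member's gap. The division raised the log2 ratio of every named gene by over 3, since psbs medians were lower. Cyclic loess, which removes trends with brightness between samples, left 158, against 17.8%. These counts use the contrast that chose the members and are a description of how they depend on scale.

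The 33 members that overlapped after loess all lay in the top quartile of WT means, but 76 of the 158 that did not overlap lay there too. The 33 members' median WT percentile was 97.3, against 75.2 for the other 158, and their median ratio as deposited was 2.56, against 3.34. Of the named genes AT5G38360, AT5G50350 and AT3G26630 were among the 33, with log2 ratios after loess of 0.34, 0.26 and -0.11. Over all members the log2 ratio was at or below 0 after loess at 9 of 191, and after quantile scaling at 1. For the 11 other named genes the log2 ratio after loess ran from 0.87 for RAP74 to 5.11 for AT1G51080. The median of all features with both means above 0 was itself at -0.01 after quantile scaling, 0.52 after division by the median and 0.33 after loess. Relative to that shift AT5G38360 was level after loess and AT5G50350 and AT3G26630 were lower.

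**Figure D5:**
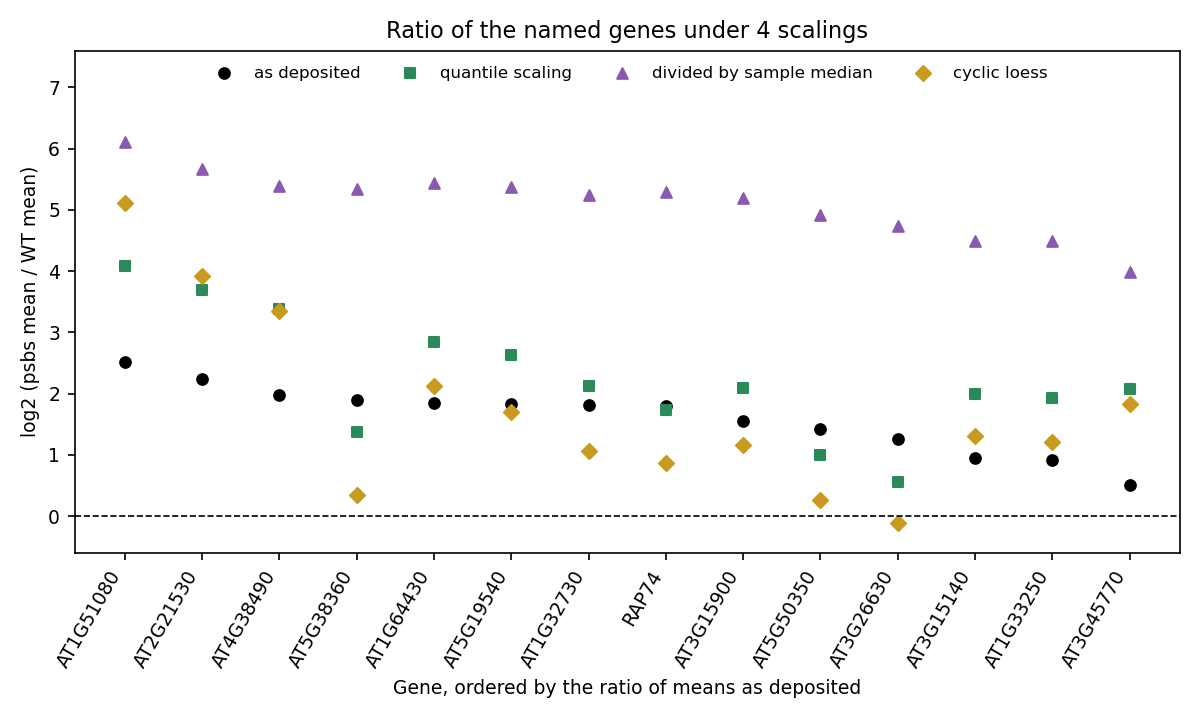
Log2 ratio of psbs mean to WT mean of the 14 named genes on deposited values (circles), after quantile scaling (squares), after dividing each sample by its median (triangles) and after cyclic loess (diamonds); the dashed line marks equal means. All points lie above it except AT3G26630 after loess, at -0.11.

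The annotation of the members was thin. A single gene was carried by 11.5% of them, against 20.1% of all features, and none by 74.9%, against 54.6%. Among tested features of a single gene 3.26% met the rule, the 22 of 674. No named gene lay on another single-gene feature, so no gene had an independent reading on this array. AT3G26630 was also listed on 1 feature with several genes, from which no value was assigned to it. Feature numbers that are multiples of 6 supplied 1 of the 191 members. Few of them could meet the condition on WT: 32 of the 233 tested were above 0 in all WT samples, which is 1.10% of the 2908 features that were.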

How the data were processed

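The authors deposited linear hybridization intensities, 1 per feature and sample, from 0 to 100. How they were scanned, background corrected and scaled is not given in the sources used here, nor what a 0 means. Sample titles gave group and replicate number. Genes were named by the array's platform annotation, and 690 of 692 single-gene features matched the TAIR10.1 gene table; no coordinates are given, because no build is named for the files, and no sequences were used.

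The members were chosen with earlier results of these data known, and so were the lists. All single-gene members outside the 9 genes set aside are named, with the 4 single-gene features nearest outside the rule. Ratios are psbs mean over WT mean of deposited values. Scaling used limma 3.58.1 in R 4.3.3 (quantile with 0 kept at 0; cyclic loess after a floor of 0.0115, the 5th percentile of positive values) or division by the sample median. Tables and figures used Python 3.11.15 and matplotlib 3.10.9. The rule was tested on a made table and quantile scaling on simulated data. Median division was checked on the deposited data only, and cyclic loess was not tested. A limma test planned for 11 annotation groups of non-members was not run: the gene table has no descriptions, and names in words cover only 52 of 692 single-gene features (7.51%). The promoter motifs were not searched, for want of a promoter table. The number of samples limits the precision.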

Additional observations from a re-analysis of the deposited data

Results flagged for a closer look

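For 42 groups of 6 values (the 14 named genes and the 4 just outside the rule in each genotype, and 3 summaries of the members per sample) the distance of the highest and the lowest sample from its nearest neighbour was set against the whole range. Chance picks about 5% of such groups if their 6 values are independent, which the closeness of neighbouring replicate numbers puts in doubt here. A measure of 1 sample's distance also passes over a pair that stands apart together, such as psbs replicates 1 and 2 of AT3G15900 (6.33 and 6.87, against at most 2.22 in the others). By this measure the WT group of AT3G15140 was picked: replicate 1 had an intensity of 0.983, while the others ran from 0.613 to 0.683.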

How the results depend on the processing

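The number of features meeting the rule was 582 after quantile scaling and 729 after dividing each sample by its median. After cyclic loess 598 features had every psbs value above every WT value, but there the floor left the condition on 0 values in WT without effect. It was 87 when the lowest psbs value had to be at least 2 times the highest WT value, and 191 to 197 with any 1 sample left out; the other alternatives gave 130 to 247. The members' median log2 ratio of 1.63 became 2.33 after quantile scaling, 5.14 after median division and 1.59 after loess. It was 1.52 without psbs replicates 1 and 2, 1.57 with group medians, 1.82 over single-gene members, and 1.59 to 1.68 with any 1 sample left out. The number of members without overlap after quantile scaling was 186 to 187 with any 1 sample left out. AT3G26630 was at -0.11 after loess, the only direction among the named genes that turned; the cause was not tested. No named gene moved by more than its spread with any 1 sample left out. The log2 ratios of most did move with scaling: 12 of the 14 after quantile scaling and all 14 after median division. After loess 9 moved, besides AT3G26630, and without psbs replicates 1 and 2 it was 4. Pairing samples by shared replicate number as a block, added for the median after seeing the data, gave a median log2 ratio of 1.62; deviations of same-numbered samples correlated at 0.0464 to 0.159 over 1407 features, so the numbers are not taken to pair WT with psbs. The limma alternatives were not run, as the fit had no use here.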
